A study of Homo sapiens with 4 samples.

Results

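The 6 single-copy genes of distal 1q21.1 were examined in NT2 cells: PRKAB2, FMO5, CHD1L, BCL9, ACP6 and GJA5. They were chosen by gene symbol from an interval of chromosome 1 that is deleted or duplicated in some people with neurodevelopmental disorders, and they are 6 of the 62696 genes in the count tables. NT2, or NTERA-2, is a human embryonal carcinoma line that grows as undifferentiated cells and can be driven to form neurons. The labels give 1 library from wild-type cells with an empty vector and 3 libraries from cells with a HYDIN2 knockdown, replicates 1 to 3, all of the same line. The sources used here do not give the knockdown method or say if replicates are separate cultures or constructs. P-values therefore measure only the spread between these libraries, which may be technical. Per the file headers, the count columns carry other names, a LacZ control and GKAP_KIF27 sets 1 to 3.

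Distal 1q21.1 lies between blocks of repeated sequence, and unequal recombination between such blocks removes or duplicates the genes that sit between them. The genes of the interval have unrelated functions. PRKAB2 encodes a regulatory beta subunit of AMPK, the kinase that responds to low cellular energy. FMO5 encodes a flavin-containing monooxygenase, an oxidising enzyme best known from liver and gut. CHD1L, also called ALC1, is a chromatin remodeller that poly(ADP-ribose) activates at DNA damage. BCL9 links beta-catenin to PYGO proteins in Wnt-dependent transcription. ACP6 is a mitochondrial phosphatase that removes the phosphate of lysophosphatidic acid, a lipid abbreviated LPA. GJA5 is connexin 40, a gap junction channel of atrial muscle and arterial endothelium.

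On GRCh38, with GENCODE 29 as the annotation, the 6 protein-coding genes lie on chromosome 1 downstream of HYDIN2, a partial copy of the ciliary gene HYDIN that runs from 146472566 to 146914294 on the plus strand. PRKAB2 (ENSG00000131791.8) runs from 147155106 to 147172550 on the minus strand and starts 240.8 kb beyond the end of HYDIN2. FMO5 (ENSG00000131781.13) runs from 147175351 to 147243050 on the minus strand. CHD1L (ENSG00000131778.20) runs from 147242641 to 147295766 on the plus strand and overlaps FMO5 by 410 bases, head to head. BCL9 (ENSG00000116128.12) runs from 147541412 to 147626216 on the plus strand. ACP6 (ENSG00000162836.12), from 147629652 to 147670496 on the minus strand, is separated from BCL9 by 3435 bases. GJA5 (ENSG00000265107.3), from 147756199 to 147773362 on the minus strand, is the farthest from HYDIN2, at 841.9 kb. The annotation release behind the counts is not given in the sources used here, so these positions describe the genes and not the counting.

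Promoter windows are shown for the 4 genes whose levels differed most between libraries or that share a start region, PRKAB2, CHD1L, BCL9 and GJA5. They are RefSeq sequences on GRCh38.p14, from 250 bases before to 50 bases after a start site, written 5′ to 3′ on the gene's strand. Capitals mark matches on either strand to GGGCGG (the GC box of SP and KLF factors), CCGGAAG (ETS factors), TATAAA (the TATA box) and CTTTGAT (TCF and LEF factors, the partners of beta-catenin).
PRKAB2, chr1:147172421-147172720, minus strand: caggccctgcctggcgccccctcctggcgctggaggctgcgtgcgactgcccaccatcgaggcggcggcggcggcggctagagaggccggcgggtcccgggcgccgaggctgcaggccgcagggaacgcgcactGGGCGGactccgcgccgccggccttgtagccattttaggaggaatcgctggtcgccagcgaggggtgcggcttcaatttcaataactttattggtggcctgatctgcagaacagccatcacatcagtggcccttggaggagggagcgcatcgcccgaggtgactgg
CHD1L, chr1:147172497-147172796, plus strand: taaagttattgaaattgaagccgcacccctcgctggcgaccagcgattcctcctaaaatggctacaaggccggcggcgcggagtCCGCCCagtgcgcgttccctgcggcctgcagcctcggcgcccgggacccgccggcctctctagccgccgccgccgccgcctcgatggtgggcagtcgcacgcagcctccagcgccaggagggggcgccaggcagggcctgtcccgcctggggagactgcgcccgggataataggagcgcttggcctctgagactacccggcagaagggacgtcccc
BCL9, chr1:147541251-147541550, plus strand: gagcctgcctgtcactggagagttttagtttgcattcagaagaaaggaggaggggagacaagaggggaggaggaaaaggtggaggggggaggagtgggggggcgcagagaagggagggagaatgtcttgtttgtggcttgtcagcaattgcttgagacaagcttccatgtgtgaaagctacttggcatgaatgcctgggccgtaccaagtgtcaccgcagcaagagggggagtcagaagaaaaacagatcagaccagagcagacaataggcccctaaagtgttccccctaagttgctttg
GJA5, chr1:147773302-147773601, minus strand: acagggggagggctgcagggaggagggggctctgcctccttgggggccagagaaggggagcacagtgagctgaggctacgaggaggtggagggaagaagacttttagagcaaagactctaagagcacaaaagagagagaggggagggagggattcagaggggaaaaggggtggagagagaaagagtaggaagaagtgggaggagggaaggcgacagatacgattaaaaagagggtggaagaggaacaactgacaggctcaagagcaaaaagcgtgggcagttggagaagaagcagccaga

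The PRKAB2 window and the upstream CHD1L window are the same DNA over 224 bases, read on opposite strands, and these 2 start sites lie 277 bases apart and point away from each other. CHD1L has 2 more RefSeq windows, from 147242434 to 147242733 and from 147242890 to 147243189, and GJA5 has 1 more. The PRKAB2 window holds 30 CpG dinucleotides, more than 77.6% of all 35116 RefSeq windows of this length, and the upstream CHD1L window holds 33. Those of BCL9 and GJA5 hold 3 and 4. GGGCGG or its reverse complement is in 45.0% of all windows. The match marked in the PRKAB2 window and that in the upstream CHD1L window are the same site, within the shared bases. CCGGAAG is in 10.3% of windows, TATAAA in 11.5% and CTTTGAT in 2.6%, and none of these is in the 4 windows shown. Of the CHD1L windows not shown, that from 147242434 holds 1 CCGGAAG and 1 GGGCGG, and that from 147242890 holds 2 GGGCGG, on either strand. The BCL9 and GJA5 windows hold none of the 4 motifs.

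Library totals ran from 25181737 counts in the empty vector library and 28552070 in replicate 3 to 61627449 and 62904698 in replicates 2 and 1. Levels are given as CPM, a gene's counts relative to its library's total after TMM scaling, and intervals are 95% Poisson or binomial intervals for counting error only, on counts divided by 2 because both reads of a pair appear to have been counted. HYDIN2, the targeted gene, stood at 12 counts (0.50 CPM) with the empty vector. Replicates 1, 2 and 3 had 150, 112 and 11 counts of it (2.41, 1.88 and 0.352 CPM). It was above the empty vector library in replicates 1 and 2 and not distinguishable from it in replicate 3, with a ratio of 0.704 and an interval from 0.206 to 2.88. The counts given to HYDIN2 thus go against the labels of replicates 1 and 2, and every direction below is that of libraries labelled knockdown. HYDIN, of which HYDIN2 is a partial copy, had the same split with more counts: 135 with the empty vector and 540, 481 and 133 in the replicates. Its levels were 5.63, 8.68, 8.06 and 4.26 CPM in that order. Copies can share reads, so the level of HYDIN2 is uncertain, and the part of HYDIN reads in it was not tested. Replicate 3 also stood apart from replicates 1 and 2: 19.3% of 15882 tested genes differed from both of them at least 2-fold in 1 direction. All 12 embryonal carcinoma markers that were examined, among them POU5F1, NANOG, SOX2 and LIN28A, passed the minimum level, and their summed level ran from 8178 to 9991 CPM over the 4 libraries. Among these, DNMT3B was lower by the 2-fold rule defined below, at 795 CPM against 340.05, 351 and 350 CPM. Of the 12, 6 were below the empty vector library in every labelled knockdown library, against 34.2% of all tested genes. Another 2 were above it in every one, against 30.1%. The median of the 12 mean log2 differences was -0.24, beside -0.02 over all tested genes. The median in replicate 3 alone was -0.76, beside -0.15. Of 7 neural markers 6 were tested, with sums of 181 CPM with the empty vector and 342, 321 and 287 CPM in the replicates. Most of this sum was NES, at 167 CPM against 292, 274 and 270 CPM. PAX6 was higher, with 0 counts against 957, 784 and 92. Of the 6, 4 were above the empty vector library in every labelled knockdown library, against 30.1%. In replicate 3, ELAVL4 was at 0.064 CPM against 0.667 with the empty vector, and DCX at 11.5 against 11.7. Of 5 fibroblast markers 4 were tested, with sums of 138 CPM against 262, 240 and 204 CPM, and PDGFRB was higher. Of these 4, 3 were above the empty vector library in every labelled knockdown library, against 30.1%. The other, LUM, was at 9.13 CPM in replicate 3 against 16.2 with the empty vector. The part of these markers in the results below was not tested.

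The first question was whether the genes next to HYDIN2 differed between the labelled knockdown libraries and the empty vector library. The rule for a call, named the 2-fold rule here, asked that every labelled knockdown library differ from the empty vector library by at least 1 in log2 CPM, all with 1 sign. Genes were tested when the mean of the 2 group means was at least 1 CPM, which all 6 genes passed. None of the 6 was higher and none was lower by this rule. Among all 15882 tested genes, 3.66% were higher and 2.71% lower, 6.37% in either direction. The empty vector library was the lowest of the 4 libraries for 2 of the 6 genes, FMO5 and BCL9, against 30.1% of all tested genes. It was the highest for 1, GJA5, against 34.2%. For PRKAB2, CHD1L and ACP6 the empty vector level lay inside the range of the labelled knockdown libraries. The median of the 6 mean log2 differences was 0.30, beside -0.02 over all tested genes. Each SD given below covers only the spread between the labelled knockdown libraries. All differences of a gene share the lone empty vector library, and the SD leaves out the error of that library.

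**Figure D1:**
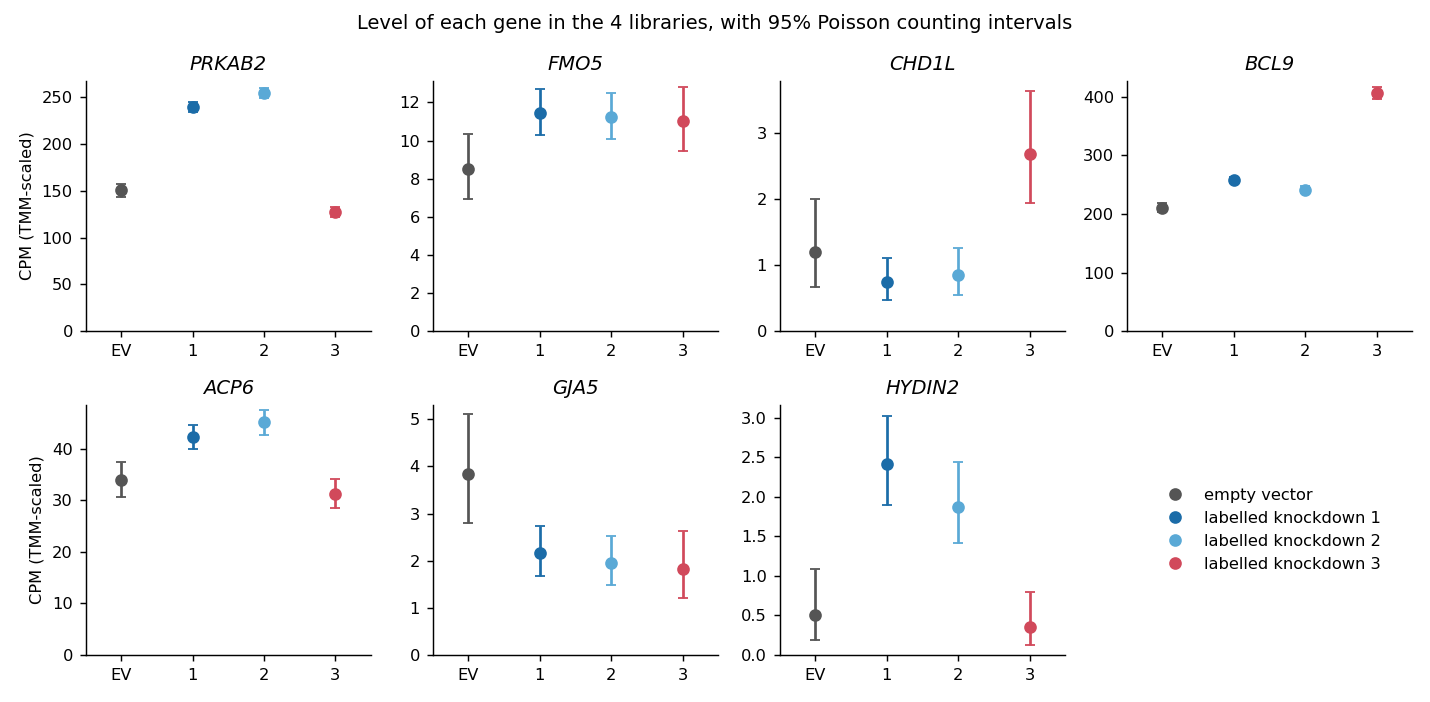
Level in CPM (vertical axes, from 0) of the 6 genes and of HYDIN2 in the empty vector library (EV) and labelled knockdown replicates 1, 2 and 3, each point 1 library with its 95% Poisson counting interval. PRKAB2, ACP6 and HYDIN2 are high in replicates 1 and 2, BCL9 and CHD1L are highest in replicate 3, FMO5 is lowest and GJA5 highest in the empty vector library.

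edgeR's quasi-likelihood test, whose spread comes from the 3 labelled knockdown libraries and which assumes that the lone empty vector library varies like them, called 0 of the 6 genes. Over all 26029 genes it called 0 as well (0%), with 3023 (11.6%) at an unadjusted p under 0.05; none of the 6 was among the latter. DESeq2 and limma voom also called 0 of the 6, of 270 and 0 genes called in all. The lowest edgeR adjusted p of the 6 was 0.466, for GJA5. Replicate 3 decided these calls. Without it, edgeR called 5 of the 6 genes, all but CHD1L, but it then called 11177 of 25016 genes (44.7%), with a spread taken from replicates 1 and 2 alone.

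PRKAB2, the AMPK beta 2 subunit gene, stood at 150.4 CPM with the empty vector and at 239.5, 254 and 127 CPM in replicates 1, 2 and 3. Replicates 1 and 2 were high, and replicate 3 lay below the empty vector library, so the groups overlapped. The ratio to the empty vector library was 1.59 (1.51 to 1.68) in replicate 1, 1.69 (1.61 to 1.78) in replicate 2 and 0.845 (0.793 to 0.901) in replicate 3. The mean difference, 0.40 ± 0.55 on the log2 scale (SD, n = 3), did not exceed its spread, with an edgeR adjusted p of 0.717. It was 0.24, 0.20 and 0.67 without replicates 1, 2 and 3, and 0.19 after correction of each library's differences for a smooth dependence on gene length and on GC. PRKAB2 was 0.531 times as high in replicate 3 as in replicate 1 (0.505 to 0.558), and 0.4996 times as high as in replicate 2 (0.475 to 0.525). The deeper libraries are also the ones in which PRKAB2 was high. After thinning of all libraries to 25181737 counts its log2 differences were 0.62, 0.70 and -0.25, against 0.67, 0.76 and -0.24 at full depth. Random thinning keeps a gene's expected share of its library, so little change was possible at these counts. The part of depth, or of anything that goes with it, was not tested. HYDIN2 was also high in replicates 1 and 2, but in replicate 3 it was not distinguishable from the empty vector library. High levels in these replicates were common: 20.3% of all tested genes were at least 1.5-fold above the empty vector library in both.

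FMO5, the monooxygenase gene next to PRKAB2, stood at 8.50 CPM with the empty vector and at 11.4, 11.2 and 11.1 CPM in replicates 1, 2 and 3. The labelled knockdown libraries were close to each other, and all lay above the empty vector library. The ratios were 1.35 (1.08 to 1.69), 1.32 (1.06 to 1.67) and 1.30 (1.01 to 1.67), so the counting interval of replicate 3 only just cleared 1. The mean log2 difference was 0.40 ± 0.03 (SD, n = 3). The counting intervals of the single ratios were wider than this SD, so the SD does not give the precision of the difference. Under the same correction for length and GC the mean was 0.57, with 0.52, 0.45 and 0.76 in the 3 replicates. An exact permutation test over the 4 libraries gave a two-sided p of 0.25 for FMO5, the smallest it can give with 1 library against 3, and edgeR's adjusted p was 0.642. The counts behind these levels were 204, 712, 671 and 345. The 18 exon bases of FMO5 that other genes' exons overlap on the opposite strand are 0.301% of its exons. Of 5 hepatocyte markers, 0 passed the minimum level, and their summed level ran from 0.707 to 1.26 CPM.

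CHD1L, the remodeller gene, had few counts: 29 with the empty vector, then 46, 51 and 84 in replicates 1, 2 and 3. Its levels were 1.21, 0.739, 0.855 and 2.69 CPM in that order. Replicate 3 was the highest, and replicates 1 and 2 were below the empty vector library by less than counting error, with ratios of 0.612 (0.312 to 1.33) and 0.707 (0.376 to 1.55). The ratio for replicate 3 was 2.23 (1.23 to 4.57). The mean difference, -0.01 ± 0.99 on the log2 scale (SD, n = 3), had no stable sign: it was -0.62 without replicate 3 and 0.30 without replicate 1.

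CHD1L was 3.64 times as high in replicate 3 as in replicate 1 (2.14 to 6.34) and 3.15 times as high as in replicate 2 (1.85 to 5.24). It was the only one of the 6 genes at least 2-fold higher in replicate 3 than in both, against 6.2% of all tested genes, and 0 of the 6 were lower, against 13.1%. LINC00624, a long noncoding RNA gene on the opposite strand that overlaps CHD1L and was added after its values were seen, stood at 3.08 CPM with the empty vector and at 3.79, 4.11 and 7.14 CPM in replicates 1, 2 and 3. In GENCODE 29 other genes' exons cover 228 exon bases of CHD1L on the opposite strand (6.75%) and 37 on the same strand. The libraries were made with strand marking, but the strand setting of the counting and its treatment of overlaps are not given, so the level of CHD1L is uncertain.

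BCL9, the Wnt co-factor gene, stood at 211 CPM with the empty vector and at 258, 241.5 and 406 CPM in replicates 1, 2 and 3. All labelled knockdown libraries were above the empty vector library, and replicate 3 was well above the others. The ratios were 1.22 (1.17 to 1.28) in replicate 1, 1.15 (1.09 to 1.20) in replicate 2 and 1.93 (1.84 to 2.02) in replicate 3. The mean log2 difference was 0.48 ± 0.41 (SD, n = 3), with an edgeR adjusted p of 0.620 and an exact permutation p of 0.50, two-sided. Without replicate 3 the mean was 0.20. The same correction for length and GC took the differences of replicates 1 and 2 to 0.03 and -0.02 and that of replicate 3 to 0.66. The longest transcript of BCL9 is 6278 nt, with 53.0% GC. BCL9 was 1.58 times as high in replicate 3 as in replicate 1 (1.52 to 1.63) and 1.68 times as high as in replicate 2 (1.62 to 1.74).

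ACP6, the LPA phosphatase gene 3435 bases from BCL9, stood at 33.9 CPM with the empty vector and at 42.3, 45.2 and 31.3 CPM in replicates 1, 2 and 3. Its order of libraries was that of PRKAB2 and not that of its neighbour BCL9. The ratios were 1.25 (1.12 to 1.40), 1.33 (1.19 to 1.49) and 0.922 (0.806 to 1.05), the last with an interval that included 1. The mean difference, 0.20 ± 0.28 on the log2 scale (SD, n = 3), did not exceed its spread, with an edgeR adjusted p of 0.809. It was 0.13, 0.09 and 0.32 without replicates 1, 2 and 3. It turned to -0.19 under the same correction for length and GC, with -0.08, 0.05 and -0.55 in the 3 replicates.

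GJA5, the connexin 40 gene, stood at 3.83 CPM with the empty vector and at 2.15, 1.96 and 1.83 CPM in replicates 1, 2 and 3, from 92, 134, 117 and 57 counts. All labelled knockdown libraries were below the empty vector library and close to each other. The ratios were 0.562 (0.380 to 0.836), 0.511 (0.338 to 0.764) and 0.476 (0.282 to 0.765). The mean difference, -0.94 ± 0.12 on the log2 scale (SD, n = 3), was the largest of the 6 in size at the main settings. It was larger than the spread between the labelled knockdown libraries, which leaves out the error of the lone empty vector library. It missed the 2-fold rule because replicates 1 and 2 lay at -0.82 and -0.95, and it passed at 1.5-fold, as 9.61% of all tested genes did in the lower direction. An exact permutation test gave a two-sided p of 0.25, the smallest possible here, and edgeR's adjusted p was 0.466. Exons of AC241644.3, a gene on the opposite strand, cover 20.3% of the exon bases of GJA5, so its level too depends on the strand setting.

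Markers of the cell types that use GJA5 were read beside it. Of 10 arterial endothelial markers 7 were tested, with a summed level of 117 CPM with the empty vector, then 269, 257 and 177 CPM in replicates 1, 2 and 3. TEK, the most abundant, was at 62.1 CPM against 143.7, 142 and 115 CPM. EMCN had 0 counts in all 4 libraries. PECAM1, below the minimum level, had 28, 40, 34 and 14 counts, or 1.17 CPM against 0.643, 0.570 and 0.448 CPM. Of the 7 tested, 4 were above the empty vector library in every labelled knockdown library, against 30.1% of all tested genes. The others were below it in replicate 3: VWF at 2.72 against 5.00 CPM, HEY2 at 10.1 against 18.2 and TIE1 at 4.39 against 4.92. Of 6 cardiac muscle markers 3 were tested, with summed levels of 36.4, 62.4, 61.0 and 110 CPM. The cardiac sum was mostly RYR2, which passed the 2-fold rule as higher, at 25.1 CPM against 56.2, 55.1 and 95.8 CPM. The other tested cardiac markers went the other way in replicates 1 and 2: MYH6 was at 3.71 CPM against 1.61, 2.11 and 3.49 CPM, and ACTN2 at 7.25 CPM against 3.84, 3.15 and 9.26 CPM. The median of the mean log2 differences was -0.58 for the cardiac markers and 0.83 for the endothelial ones. These markers thus moved in both directions beside GJA5, and the part of other cell types in the level of GJA5 was not tested. In RNA from whole cultures, fewer cells of a type and less RNA per cell cannot be told apart.

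**Figure D2:**
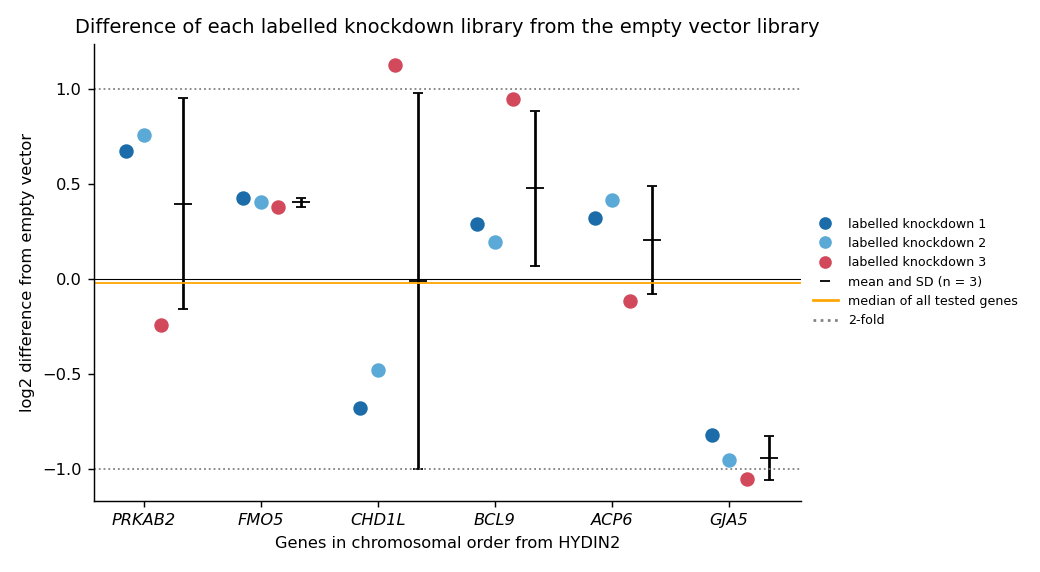
Log2 difference in CPM of each labelled knockdown library from the empty vector library (vertical axis) for the 6 genes in chromosomal order; points are libraries, black bars the mean and SD of the 3, dotted lines 2-fold and the orange line the median of all tested genes. FMO5 (0.40 ± 0.03) and GJA5 (-0.94 ± 0.12) have tight points on 1 side of 0, while replicate 3 stands apart for PRKAB2, CHD1L, BCL9 and ACP6. The SD leaves out the error of the lone empty vector library, which all points of a gene share. For FMO5 and GJA5 the counting intervals of the single ratios are wider than the SD.

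Among themselves the 6 genes therefore had 4 patterns over the libraries. PRKAB2 and ACP6 were high in replicates 1 and 2, BCL9 and CHD1L were highest in replicate 3, FMO5 was slightly higher in all labelled knockdown libraries and GJA5 was lower in all of them. The part of position in these patterns was not tested. CHD1L and BCL9, adjacent in the set at 245645 bases, were both highest in replicate 3, while BCL9 and ACP6, at 3435 bases, differed there. In replicates 1 and 2 BCL9 was above the empty vector library, and CHD1L was not distinguishable from it. PRKAB2 and CHD1L had opposite signs in every labelled knockdown library, though CHD1L was within counting error of the empty vector library in replicates 1 and 2. The RefSeq start of CHD1L that lies 277 bases from that of PRKAB2 is 1 of its 3, and counts per gene do not tell which start was used. PDIA3P1, a transcribed pseudogene chosen after its values were seen, which overlaps FMO5 on the opposite strand in GENCODE 29, had log2 differences of 0.44, 0.52 and 0.48, close to those of FMO5. No correlation is given over 4 libraries.

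Levels of different genes were compared as CPM per kb of merged exon length. In the empty vector library BCL9 (32.9) and PRKAB2 (27.6) were far above ACP6 (2.84), FMO5 (1.42), GJA5 (1.16) and CHD1L (0.358). PRKAB2 was above BCL9 in replicates 1 and 2, with 43.9 and 46.6 against 40.2 and 37.6 CPM per kb, and below it in replicate 3, with 23.3 against 63.3. Their ranges over the labelled knockdown libraries overlapped. ACP6, at 2.62 to 3.78 CPM per kb, stayed above FMO5, at 1.85 to 1.91. GJA5 (0.555 to 0.654) and CHD1L (0.219 to 0.797) overlapped, and CHD1L was the lower of these 2 except in replicate 3.

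The closest patterns elsewhere in the table were found by the distance between genes' log2 CPM over the 4 libraries, each gene centred on its own mean, among 15881 other tested genes. LZTFL1 (distance 0.023) and ZBTB46 (0.0352) were nearest to PRKAB2. CELSR3 (0.0056) and NBPF11 (0.0165), the latter a repeated gene of 1q21.1 whose copies can share reads, were nearest to BCL9, and FN3KRP (0.0154) and C1RL (0.0448) to GJA5. ZFHX3-AS1 (0.011) and ODR4 (0.026) were nearest to FMO5, GGA1 (0.0327) and ATG9A (0.0336) to ACP6, and ST20 (0.0883) and ZNF611 (0.1135) to CHD1L. Such closeness was common: 416 genes lay within 0.25 of PRKAB2, 939 of FMO5, 425 of BCL9, 929 of ACP6, 292 of GJA5 and 36 of CHD1L.

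**Figure D3:**
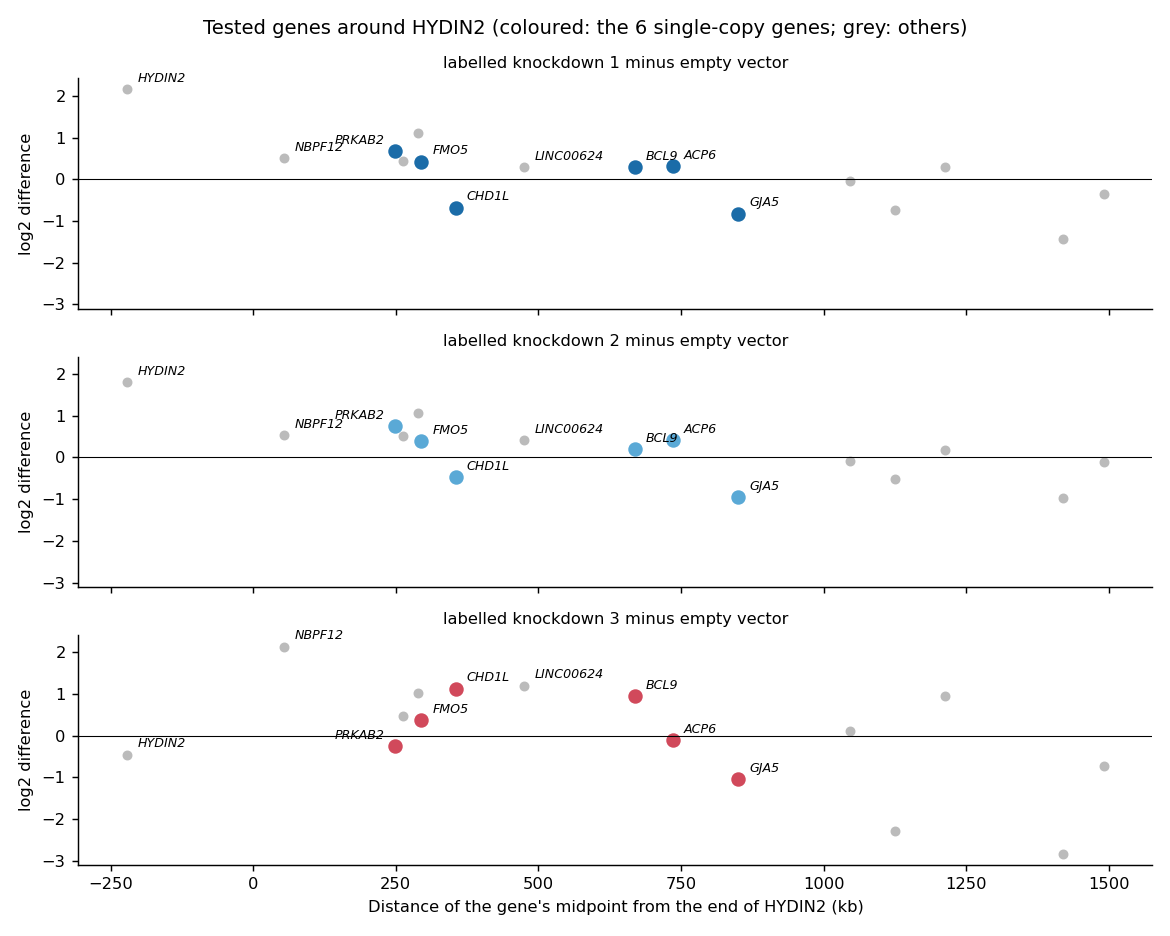
Log2 difference from the empty vector library (vertical axes) of tested genes by the distance of their midpoint from the end of HYDIN2 in kb, 1 panel for each labelled knockdown library, with the 6 genes coloured and other genes in grey. In replicate 1, CHD1L at -0.68 and GJA5 at -0.82 lie below 0 and the other 4 above it. CHD1L was within counting error of the empty vector library there, so its sign is uncertain. In replicate 3, PRKAB2 (-0.24) and GJA5 (-1.05), the nearest and the farthest of the 6, lie below 0. BCL9 between them (0.945) lies above 0, and ACP6 (-0.12) is within counting error.

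The surrounding single-copy genes gave the local setting. Of 11 tested genes of proximal 1q21.1, 0 were higher and 0 lower by the 2-fold rule, with a median mean difference of -0.05. That median was -0.24, -0.22 and 0.25 without replicates 1, 2 and 3, so its sign rests on replicate 3. Their most abundant gene, TXNIP, which encodes an inhibitor of thioredoxin, stood at 165 CPM with the empty vector and at 2377, 2358 and 30.0 CPM in the replicates, so replicate 3 lay on the other side. Of 23 tested single-copy genes of 1q21.2, 0 were higher and 0 lower, with a median of 0.13, and MCL1, the most abundant, had differences of -0.24, -0.16 and -0.33. Of a list of other genes of distal 1q21.1, among them GPR89B, NBPF copies, pseudogenes and noncoding RNAs, 7 of 10 were tested; 0 were higher and 0 lower, with a median of 0.48. NBPF11, the most abundant, had 0.30, 0.18 and 0.96. That list is not complete: CCT8P1, a pseudogene inside FMO5 on the same strand that was not on it, had differences of 1.11, 1.06 and 1.01 and passed the 2-fold rule as higher, while FMO5 itself did not. Pseudogenes can share reads with their parent genes, so the level of CCT8P1 is uncertain. Over the 110 tested genes within 5 Mb of HYDIN2 on chromosome 1, 2 were higher and 1 was lower, with a median of 0.01. Over all tested genes 3.66% were higher and 2.71% lower.

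AMPK signalling was examined as a list of 22 genes, PRKAB2 included, 20 of them tested. By the 2-fold rule 1 was higher, 1 was lower and 18 were neither, beside 3.66% higher and 2.71% lower over all tested genes. The median of the list was 0.28, which was 0.06 under the length and GC correction and 0.18 without replicate 2. FNIP2, which binds folliculin and AMPK, stood at 9.25 CPM with the empty vector and at 24.0, 22.2 and 34.1 CPM in the replicates. CAMKK2, a kinase that activates AMPK in response to calcium, had 42.7 CPM against 18.9, 20.7 and 18.4 CPM. PRKAB1, which encodes the other beta subunit, had 42.9 CPM against 52.4, 61.1 and 32.1 CPM, with replicate 3 the lowest, as for PRKAB2. Per kb of exon PRKAB2 was 4.01 times as high as PRKAB1 in the empty vector library and 5.23, 4.77 and 4.53 times as high in replicates 1, 2 and 3.

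Of 13 Wnt pathway genes, BCL9 included and all tested, 1 was higher, 0 were lower and 12 were neither. Over all tested genes 3.66% were higher and 2.71% lower, and the median of the 13 was 0.67. The higher gene was BCL9L, the paralog of BCL9, at 58.6 CPM with the empty vector and 160.4, 141 and 167.5 CPM in the replicates, a mean log2 difference of 1.41 ± 0.13 (SD, n = 3). Per kb of exon, BCL9 was 5.87 times as high as BCL9L in the empty vector library and 2.62, 2.79 and 3.95 times as high in the replicates. CTNNB1, which encodes beta-catenin, had differences of 0.34, 0.26 and 0.01. LEF1, singled out after its values were seen, was highest in replicate 3 as BCL9 was, at 7.50 CPM with the empty vector and 13.1, 13.1 and 41.2 CPM in the replicates; it belongs to the pathway list and to the target list below. Of 13 genes known as Wnt targets 11 were tested; 0 were higher and 1 was lower, NOTUM, a secreted Wnt inhibitor, with 58 counts against 24, 10 and 30. CCND1, the most abundant target, had differences of 0.12, 0.13 and 0.12. In replicate 3, 5 of the 11 were at least 2-fold above both other labelled knockdown libraries, beside 6.2% of all tested genes. They were NKD1, SP5, NOTUM, LEF1 and TNFRSF19. Against the empty vector library their log2 differences in replicate 3 were 1.46, 0.52, -1.29, 2.45 and 1.99, so NOTUM was below it there too. The length and GC correction took the median of the pathway genes from 0.67 to 0.27, and it was 0.44 without replicate 3.

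Of 23 genes of the CHD1L list, which holds PARP pathway genes and remodellers, 22 were tested; 0 were higher and 0 lower, with a median of 0.05, or 0.20, 0.18 and 0.04 without replicates 1, 2 and 3. PARP1, the most abundant, makes the poly(ADP-ribose) that activates CHD1L, and had 787 CPM against 565, 592 and 615 CPM, differences of -0.48, -0.41 and -0.36. Of 19 genes of LPA metabolism around ACP6, 18 were tested. Of these, 0 were higher and 2 were lower, beside 3.66% and 2.71% of all tested genes, with a median of 0.06. The lower genes were LPAR6, an LPA receptor, with 19.8 CPM against 8.39, 9.22 and 5.48 CPM, and PLPP2, a lipid phosphate phosphatase, with 51.7 CPM against 20.9, 25.5 and 24.99 CPM. AGPAT5, the most abundant of the list, had differences of -0.16, -0.29 and 0.07. Of 7 acid phosphatases 4 were tested, with 0 higher and 0 lower. Of 5 FMO genes only FMO5 and FMO4 were tested, and neither passed the rule. Of 20 connexins 6 were tested, 0 higher and 0 lower. GJA1, which encodes connexin 43, had 800.2 CPM against 578, 548 and 915 CPM, and per kb it was 201 times as high as GJA5 in the empty vector library and 259, 269 and 483 times as high in the replicates.

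**Figure D4:**
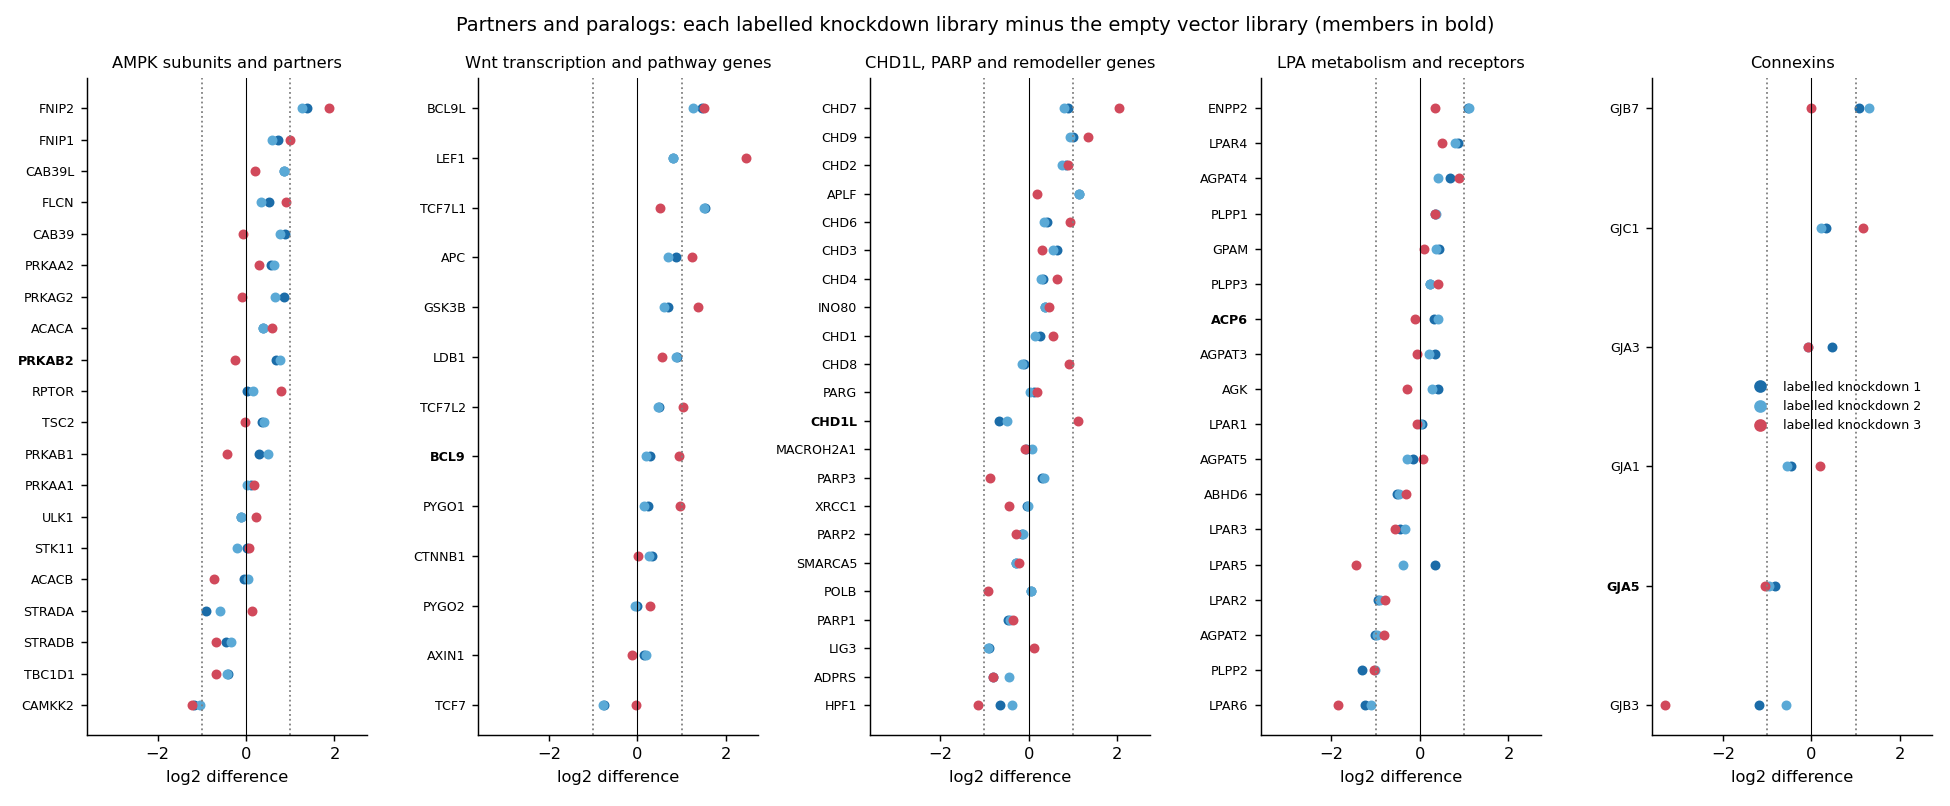
Log2 difference from the empty vector library (horizontal axes) of each tested gene in 5 lists of partners and paralogs, points coloured by labelled knockdown replicate, dotted lines at 2-fold. FNIP2, BCL9L, CAMKK2, LPAR6 and PLPP2 lie beyond 2-fold in all 3 libraries, and none of PRKAB2, BCL9, CHD1L, ACP6 and GJA5 does.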

How the data were processed

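RNA of 4 NT2 libraries was depleted of ribosomal RNA and sequenced with strand marking, per the labels' protocols. The authors deposited raw counts per gene; the submitters' processing notes name STAR 2.7.11b, featureCounts 2.0.6, DESeq2 and GRCh38, while the annotation and the strand and overlap settings are not given in the sources used here. Between 65.2% and 68.0% of nonzero counts were even. Files were assigned to samples by the series record and groups by title. Of 62696 identifiers, 58225 matched GENCODE 29.

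TMM factors (edgeR 4.0.16, R 4.3.3, genes kept by filterByExpr) were 0.953, 0.989, 0.968 and 1.09 for the empty vector library and replicates 1, 2 and 3. Log2 CPM used a prior count of 2. edgeR's quasi-likelihood test with Benjamini-Hochberg adjustment at 0.05 ran over all genes, with DESeq2 1.42.0 and limma 3.58.1 (voom) as alternatives. Intervals are exact, from scipy 1.17.1. The rule and edgeR's test were run on simulated counts in which the labelled knockdown libraries shared the same mean for each gene. In the data replicate 3 stood apart, so this check does not show how the tests behave on these libraries. Trends were removed by lowess with a span of 0.3.

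The genes, lists, rules and alternatives were chosen with earlier results of these data known. Besides the 6 genes, the genes named from a list are those past the 2-fold rule (up to 3 in each direction) and its most abundant gene. PRKAB1, BCL9L, GJA1 and PARP1 and the 2 nearest patterns were named as well. LEF1, NKD1, SP5, TNFRSF19, LINC00624, PDIA3P1, CCT8P1, MYH6, ACTN2, TIE1, VWF, HEY2, ELAVL4, DCX and LUM were added after their values were seen.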

Additional observations from a re-analysis of the deposited data

How the results depend on the processing

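No paired analysis was possible because only 1 library carries the empty vector, and its label has no replicate number. The count of the 6 genes past the 2-fold rule stayed at 0 higher and 0 lower under each scaling, prior count, minimum level, omitted library, thinning and trend removal that was run; the exception was a 1.5-fold rule, with 1 lower, GJA5. The median of their mean differences was 0.15 after removal of length and GC trends. Without single replicates it ran from 0.21 to 0.32. Mean differences of PRKAB2, FMO5, BCL9 and GJA5 kept their sign in all 10 alternatives and that of ACP6 in 9, while CHD1L kept it in 4. Over all genes, 581 were higher and 431 lower; these counts became 1606 and 1034 at a minimum of 0.1 CPM, 377 and 253 at 5 CPM, 1590 and 1527 at 1.5-fold, and 1356 and 1074 for 2-fold in the mean. Without single replicates they ran from 579 to 1425 and from 517 to 940, the highest of each without replicate 3. Trend removal left 224 lower. DESeq2 called 270 genes where edgeR called 0. Without single replicates edgeR called 17 to 11177 genes over the table and 0 to 5 of the 6. These fits set the lone empty vector library against 2 and assume that it varies like them; the cause of these changes was not tested. Counts of 29 for CHD1L and 92 for GJA5 in the empty vector library limit the precision of their ratios.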
